A study of Mus musculus with 26 samples.

Results

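The genes described here are 8 inducible inhibitors of mitogen-activated protein (MAP) kinase signaling, the dual specificity phosphatases Dusp1, Dusp2, Dusp4, Dusp5, Dusp6 and Dusp10 and the Sprouty proteins Spry1 and Spry2. They were chosen by symbol, all 8 were found among the 46517 symbols of the table, and all 8 passed the filter that left 16372 symbols to test (10 or more normalized counts in 2 or more libraries). RNA was sequenced from thymocytes of mice whose T cells carry 1 rearranged, MHC-I-restricted T cell receptor (TCR) as a transgene. The receptors are TG6, F5 and OT-1, which the study describes as low, intermediate and high in self-reactivity. From each line, 3 populations were sorted that follow each other during positive selection: CD4+CD8+CXCR4+CCR7- (early), CD4+CD8+CXCR4-CCR7+ (late) and CD4-CD8+CXCR4-CCR7+ (mature CD8 single positive). Each of the 9 groups had 3 libraries, 1 per mouse, except for TG6 late, which had 2. OT-1 mice were Rag2KO and F5 mice were Rag1KO on C57/BL6, so their thymocytes could rearrange no other receptor. TG6 mice were H2b/d, from a cross of C57/BL6 with B6.C-H2d/bByJ, and kept Rag, so that their thymocytes could also make receptors of their own. Line, Rag genotype and MHC haplotype changed together between TG6 and the others and cannot be told apart. No group was treated. Mice were 3 to 10 weeks old by the general statement of the methods, which sets neonatal experiments apart, and the sources used here do not give the age of the mouse behind each library.

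When the TCR binds its ligand, Ras activates a kinase cascade that ends in the phosphorylation of ERK, and ERK in turn induces a set of immediate early genes. Several of these encode the inhibitors that end the signal. Dual specificity phosphatases remove the activating phosphates from MAP kinases in the nucleus or the cytoplasm, and Sprouty proteins act further upstream, between the receptor and Ras or Raf. The name "ERK feedback genes" does not suit every member equally: Dusp5 and Dusp6 are known as ERK-selective, whereas Dusp10 acts mainly on the stress kinases p38 and JNK. In the thymus, the strength and duration of ERK signaling are known to bear on whether a thymocyte is positively selected or deleted.

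The DNA just upstream of 3 members is shown because it holds motifs of factors that MAP kinase or calcium signals are known to act on. Promoter entries were found for 7 of the 8 members in RefSeq (GRCm38.p6), and the window shown runs from 200 to 41 bases before the start of transcription. Each is printed 5′ to 3′ in the direction of transcription, and the capitals mark the motif. Dusp1 (chr17:26508513-26508672, minus strand) holds the cAMP response element TGACGTCA, Dusp2 (chr2:127335959-127336118, plus strand) holds a match to the Egr element GCGNGGGCG, and Dusp5 (chr19:53528945-53529104, plus strand) holds 2 CArG boxes, the motif of serum response factor, side by side.
Dusp1: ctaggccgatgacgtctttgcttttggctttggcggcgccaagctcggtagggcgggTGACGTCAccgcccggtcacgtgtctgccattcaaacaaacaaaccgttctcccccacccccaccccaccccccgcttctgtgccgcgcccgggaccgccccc
Dusp2: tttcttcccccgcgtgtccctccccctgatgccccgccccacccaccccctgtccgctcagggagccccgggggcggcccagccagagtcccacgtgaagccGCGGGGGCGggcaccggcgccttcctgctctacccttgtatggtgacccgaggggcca
Dusp5: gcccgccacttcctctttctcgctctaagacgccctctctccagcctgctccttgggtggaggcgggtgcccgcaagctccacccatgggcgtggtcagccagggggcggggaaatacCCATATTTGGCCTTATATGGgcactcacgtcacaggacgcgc
On either strand, the cAMP response element was present in 303 of 32851 promoter windows of this length (0.922%), the Egr element in 967 (2.94%) and the CArG box in 314 (0.956%). The AP-1 element TGANTCA, found in 1496 windows (4.55%), was in none of the 7. The windows of Dusp6, Dusp10, Spry1 and Spry2 held none of these 4 motifs. A match describes the letters in the window and nothing about what binds there.

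All values are normalized counts, read counts per gene that the authors scaled by the median-of-ratios method of DESeq2, so that levels of 1 gene can be compared between libraries. Totals per library lay between 16134786 and 18944173. Between genes, levels are compared per kb of exon. On that scale Dusp5 was highest, with a mean of 2353 normalized counts per kb over the 26 libraries, followed by Dusp10 with 1955, Dusp2 with 889 and Dusp1 with 586. Dusp4 (139) and Dusp6 (134) formed a middle pair, and Spry1 (27.8) and Spry2 (8.30) were lowest. In GENCODE vM21 (GRCm38), exons of Dusp1, Dusp5 and Spry1 share bases with Ergic1, AC137853.2 and Gm42922 on the opposite strand. Since the strand used in counting is not given in the sources used here, reads from those stretches cannot be told apart.

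The sort was visible in the libraries: Cd4 fell to between 62.8 and 461 normalized counts in the 9 mature libraries from at least 1455 in the others, and Ccr7, at 112 to 863 in early libraries, was at 2698 to 12719 in all others. Summed markers of other cells stayed low for B cells (108 to 284 over 4 genes), myeloid cells (19.6 to 567 over 7), red cells (33.9 to 1159 over 5) and thymic epithelium (24.5 to 76.0 over 5). Of the last, Foxn1 was at 0 in 25 libraries, but Epcam (10.2 to 47.7) and Psmb11 (8.88 to 42.3) were above 0 in all 26. The stroma and endothelium sum of 1942 to 3732 was mostly Pecam1, with Col1a2 at 0 in 17 libraries and Cdh5 in 13. Col1a1 (9.09 to 78.3) and Pdgfrb (16.3 to 175) were above 0 in all 26. The NK and gamma delta T cell sum of 1622 to 9998 was mostly Trdc, with Ncr1 at 0 in all 26 and Tcrg-C1 at 4.02 to 404. One TG6 mouse stood apart at the mature stage, where its library (replicate 3) had 23175 normalized counts of Mki67, a gene of dividing cells, against 6220 and 7129 in the other two. In F5 late, replicate 2 had 3139 against 127 and 109.

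**Figure D1:**
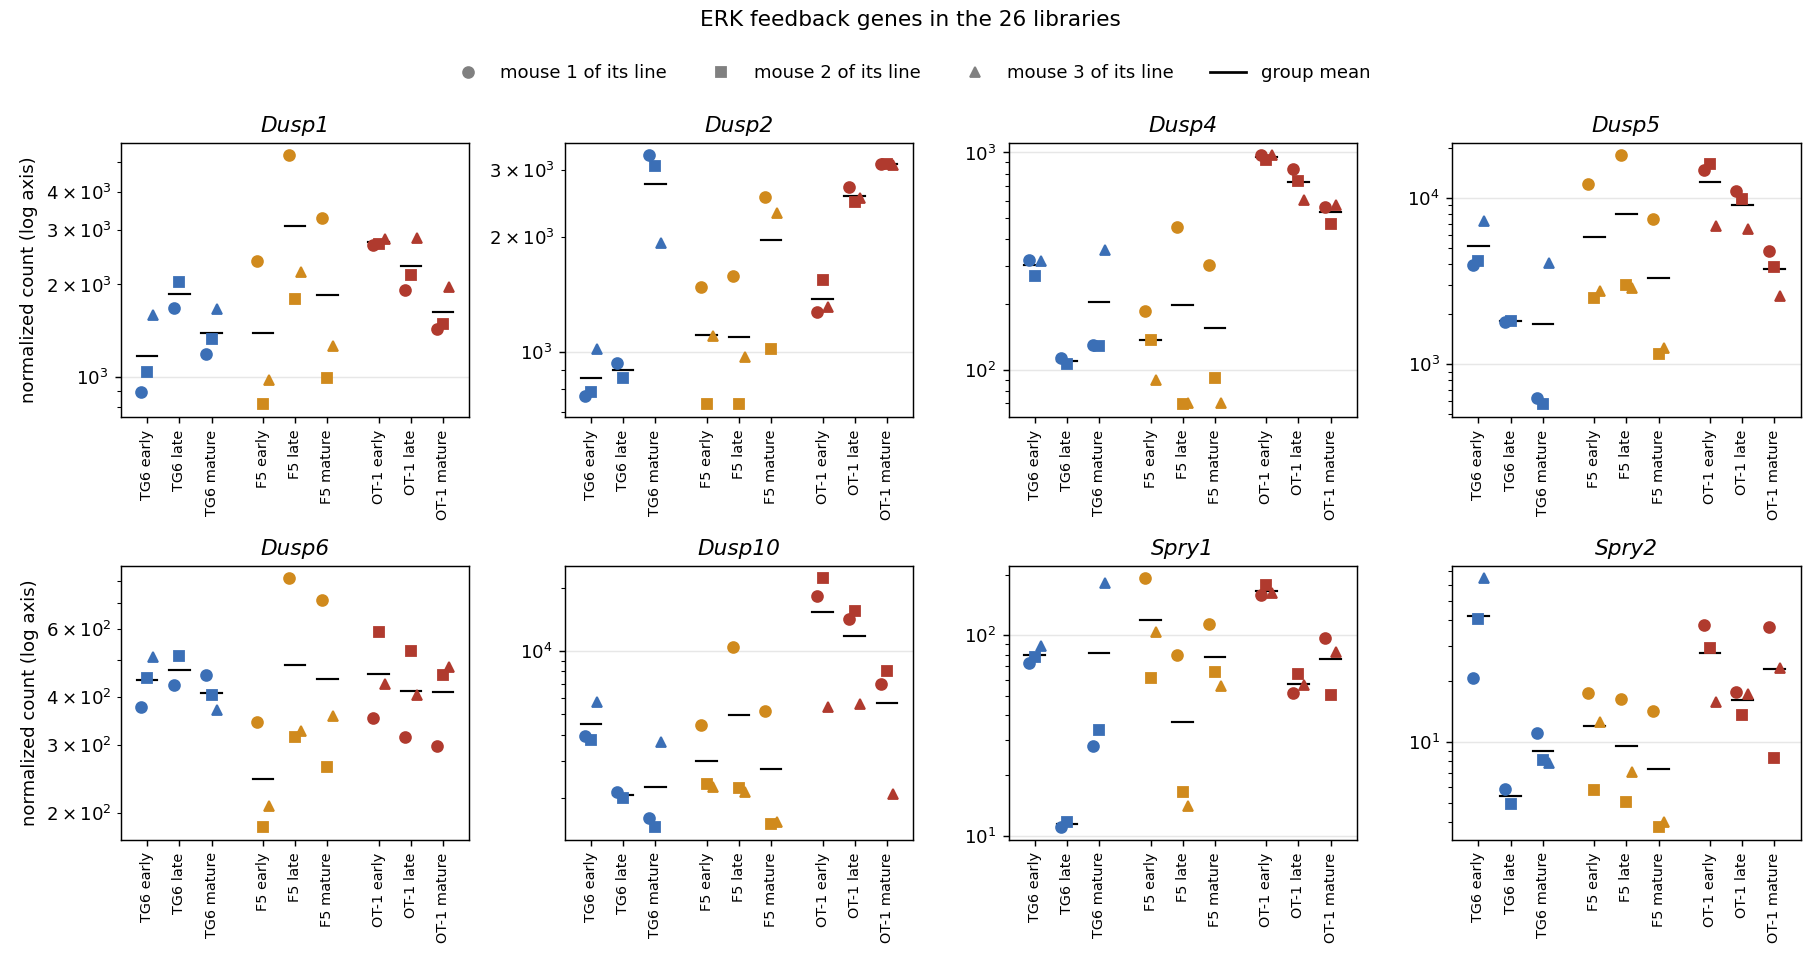
Normalized counts (log axis) of each of the 8 genes in the 26 libraries, grouped by line and stage, with the shape of a point giving the mouse and the line the group mean. The F5 replicate 1 point is the highest of its group in all 8 panels at all 3 stages.

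Mice of the same line differed severalfold for several members, as the plot of normalized counts by library shows. In F5, replicate 1 was the highest of its group at all 3 stages for 8 of 8 members, a pattern that 12.7% of all tested symbols showed. Dusp5 had 12158, 18028 and 7468 normalized counts in that mouse (early, late, mature), 4.62, 6.15 and 6.24 times the mean of the other F5 mice. Dusp4 was 1.66, 6.53 and 3.73 times and Dusp10 1.94, 4.81 and 3.42 times that mean. The other extreme was Dusp2, at 1.61, 1.85 and 1.53 times. In OT-1, replicate 3 was lowest at all 3 stages for Dusp5 and Dusp10 (12.4% of tested symbols), and the other OT-1 mice had 3.72, 2.67 and 3.58 times its Dusp10. The same mouse was the highest of OT-1 at all 3 stages for Dusp1 (12% of tested symbols). In TG6, replicate 3 was highest at both stages at which it was sequenced for Dusp1, Dusp5, Dusp10 and Spry1 (22.2% of tested symbols). Its mature library had 4044 normalized counts of Dusp5 and 182 of Spry1, 6.72 and 5.90 times the mean of the other TG6 mice.

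**Figure D2:**
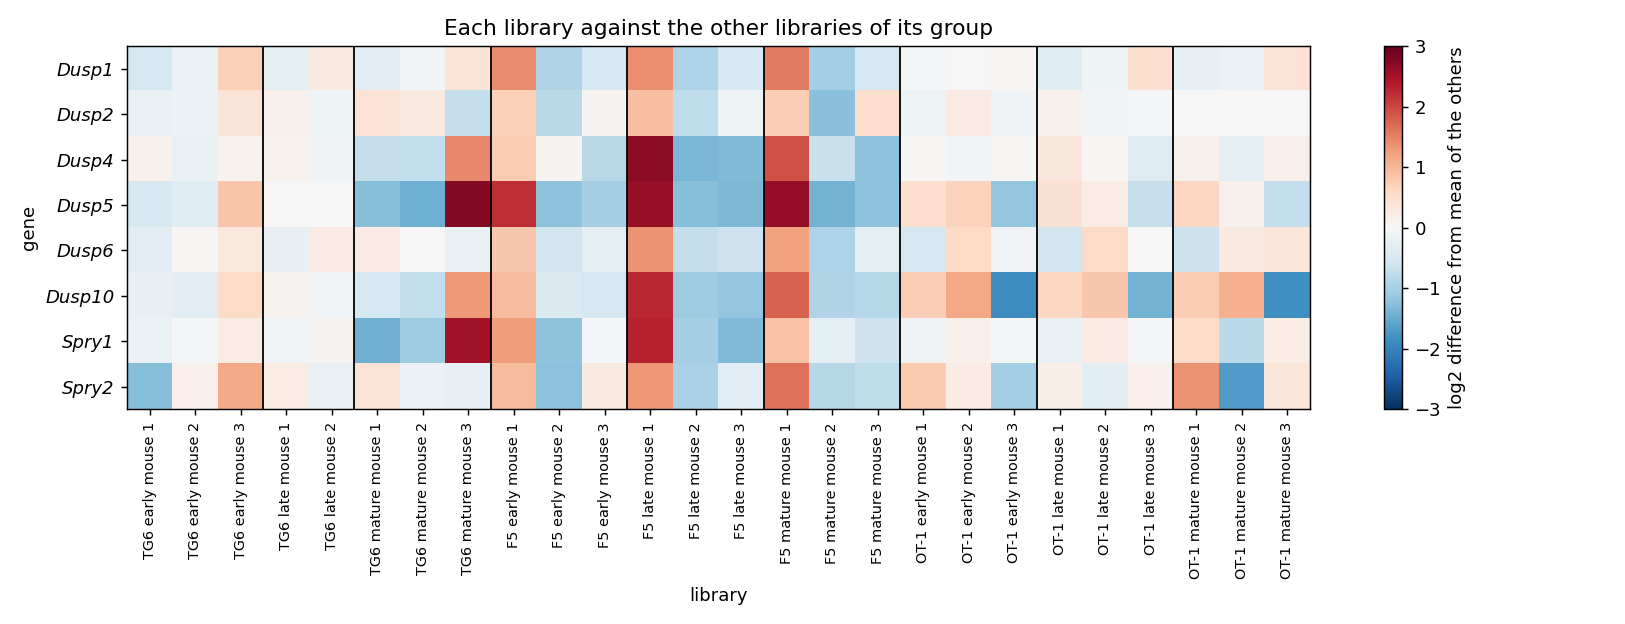
Difference of each library from the mean of the other libraries of its group, in log2(normalized count + 1), for the 8 genes (rows) and 26 libraries (columns). F5 replicate 1 is above its group in every row, and OT-1 replicate 3 is below its group at all 3 stages for Dusp10 and Dusp5.

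Several other immediate early genes, though not all, moved with the same mice. Jun, an AP-1 subunit, was 2.00, 3.58 and 3.10 higher on the log2 scale in F5 replicate 1 than in the other F5 mice, and Nr4a1, which TCR signals induce, was 1.64, 1.77 and 1.35 higher. Egr1, an ERK target, went the other way: F5 replicate 1 was the lowest of its group at all 3 stages (726, 996 and 1025 normalized counts), and TG6 replicate 3 was the lowest early and in mature cells (281 and 458). Of all tested symbols, 12.7% were highest in F5 replicate 1 at every stage and 22.2% in TG6 replicate 3. In OT-1 replicate 3, 12.4% were lowest and 12% highest. Shares for the lowest in F5 replicate 1 and TG6 replicate 3 are not given here. Of a list of 18 ERK response genes, 7 were highest and 2 lowest in F5 replicate 1 at every stage, 8 were highest and 5 lowest in TG6 replicate 3, and 4 were lowest and 4 highest in OT-1 replicate 3. Of 9 genes of the p38 and JNK cascade, 5 were highest in F5 replicate 1, 4 were highest in TG6 replicate 3 and 5 were lowest in OT-1 replicate 3, with 1, 1 and 0 at the opposite end. Of 11 heat shock and dissociation genes the counts were 3, 4 and 3, with 0, 0 and 3 at the opposite end (Hspa8, Hsph1 and Btg2 highest in OT-1 replicate 3). The sorting markers also differed: in F5 late, replicate 1 had the most Ccr7 (7609 against 2698 and 3615 normalized counts) and the least Cxcr4 (1139 against 1403 and 2561), while OT-1 late replicate 3 had the least Ccr7 (7279 against 10456 and 10976) and the most Cxcr4 (1432 against 756 and 350). The part of these values in the spread of the 8 genes was not tested. Across the 26 libraries, deviations from the group were most alike for Dusp4 and Dusp5 (r = 0.87), for Dusp5 and Dusp10 (r = 0.87) and for Dusp5 and Spry1 (r = 0.86), as a description over libraries that share mice.

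The first question was whether the inhibitors differed between receptors of high and low self-reactivity. At the early stage, OT-1 exceeded TG6 for 2 of the 8 members, Dusp1 and Dusp4, while 27.8% of all tested symbols were called in that comparison, 15.4% of all symbols higher in OT-1 (limma on log2(normalized count + 1), Benjamini-Hochberg adjusted p under 0.05, which is meant by "called" throughout). At the late stage, 4 of 8 were higher in OT-1, namely Dusp2, Dusp4, Dusp10 and Spry1, against 15.5% of symbols called, 9.34% in that direction. Among mature cells 0 of 8 were called by limma (2 at an unadjusted p under 0.05), against 9.74%. The median log2 difference of the 8 members was 1.15, 1.87 and 0.72 at the 3 stages, and that of all tested symbols was within 0.01 of 0. No member was called lower in OT-1 than in TG6. In bulk RNA, fewer cells of a type and less RNA per cell cannot be told apart. The myeloid marker sum was 117 to 368 in OT-1 early and 26.8 to 79.7 in TG6 early, the red cell sum 298 to 1159 and 158 to 328, and at the late stage the sum of cell division genes was 2349 to 4241 in OT-1 and 446 and 530 in TG6. The NK and gamma delta T cell sum was 6643 to 7662 in OT-1 early and 1720 to 2041 in TG6 early. It was 8972 to 9074 against 1837 and 3171 late, and 5421 to 5819 against 1622 to 3502 in mature cells, without overlap at any stage. The markers used for sorting moved too: OT-1 early had less Cd4 (mean 8026 against 22113 normalized counts), less Cxcr4 (2022 against 5161) and more Ccr7 (779 against 147) than TG6 early, all 3 called, and all 7 thymocyte and sorting markers passed an unadjusted p under 0.05 by limma there, with 2 of 7 late and 3 of 7 in mature cells. Their part in these differences was not tested.

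The comparisons with F5 reuse the same OT-1 and TG6 libraries. OT-1 exceeded F5 for Dusp4 and Dusp10 at the early stage (2 of 8, with 12.7% of symbols called), for Dusp2 and Dusp4 at the late stage (2 of 8, 24%) and for Dusp4 in mature cells (1 of 8, 23.3%). Between F5 and TG6, limma called 0 of 8 at each stage, against 6.46%, 4.97% and 6.64% of symbols, with 3, 0 and 0 members at an unadjusted p under 0.05. Sorting and division markers moved between OT-1 and F5 too. Mean Cd4 was 8026 against 13538 normalized counts early (adjusted p = 0.358) and 2507 against 7935 late (called), and Ccr7 was 779 against 198 early and 9570 against 4641 late (both called). Mki67 was 1700 against 1125 late (called) and 28511 against 11976 in mature cells (adjusted p = 0.215). By library, Cd4 early was 7980 to 8114 in OT-1 and 12506 to 14604 in F5, without overlap though not called. Mki67 in mature cells was 27362 to 30471 in OT-1 and 7016 to 17259 in F5, also without overlap. Mki67 late was 1966, 1123 and 2011 in OT-1 and 127, 3139 and 109 in F5, which overlapped though called. Their part in these differences was not tested. The counts of members rest on the F5 mouse described above, which was singled out after its values were seen. It was the highest of F5 for all 8 members at every stage, so leaving it out could only lower F5. Calls made without it, here and in the paragraphs on single members, are therefore no separate support. Without F5 replicate 1 at any stage, OT-1 exceeded F5 for 5 members early, 5 late and 4 in mature cells (13.8%, 25.7% and 19.4% of symbols called), and F5 was below TG6 for 3 members early (5.12%), 0 late (4.63%) and 1 in mature cells (5.7%). With the mouse as a random term, which lets libraries of 1 mouse share a deviation, OT-1 exceeded F5 for 4, 3 and 3 members (13%, 24.2% and 23.4%) and TG6 for 3, 4 and 0 (28%, 14.8% and 9.83%), while 0 members were called between F5 and TG6 at each stage (6.23%, 4.98% and 6.51%).

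**Figure D3:**
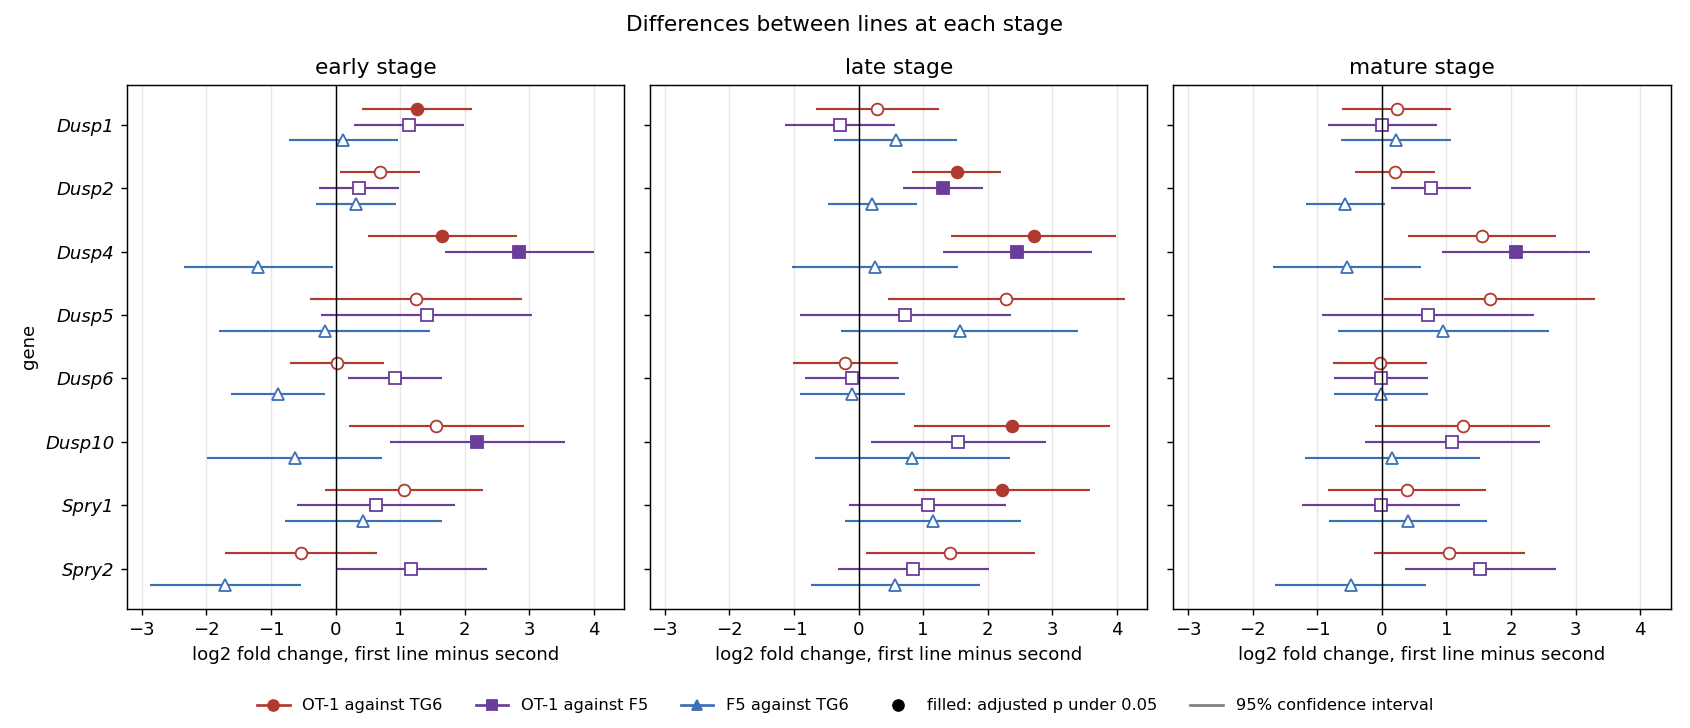
Log2 difference between lines, on the log2(normalized count + 1) scale, with 95% confidence intervals for the 8 genes at each stage, with filled points for an adjusted p under 0.05. Dusp4 lies to the right of 0 for OT-1 against TG6 and against F5 at all 3 stages, from 1.55 to 2.85.

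Dusp4, a nuclear phosphatase of ERK and JNK on chromosome 8 (34807297 to 34819894), was the only member for which every OT-1 library was above every library of the other lines (1 of 8, with 0.476% of all tested symbols so separated). It had 970, 919 and 972 normalized counts in OT-1 early, 841, 742 and 604 in OT-1 late and 563, 470 and 571 in OT-1 mature cells. In TG6 it had 321, 271 and 316 early, 114 and 106 late, and 130, 129 and 356 in mature cells. F5 had 187, 136 and 89.3 early, 455, 69.3 and 70.3 late, and 302, 91.7 and 70.2 in mature cells. The lowest OT-1 value, 470, was above the highest elsewhere, 455 in F5 late, and the groups OT-1 early, OT-1 late and OT-1 mature did not overlap each other. OT-1 was 3.15 times TG6 at the early stage (log2 1.66 ± 0.55, SE, adjusted p = 0.0291), 6.53 times at the late stage (2.71 ± 0.62, adjusted p = 0.00408) and 2.92 times in mature cells (1.55 ± 0.55), where it missed the threshold (adjusted p = 0.0803). Against F5 the factors were 7.20, 5.49 and 4.23, with adjusted p of 0.00114, 0.00230 and 0.00953. Leaving out 1 library, the log2 difference from F5 ranged from 2.57 to 3.10 early, 2.00 to 3.35 late and 1.67 to 2.71 in mature cells. The early call against TG6 was lost without any 1 of the 6 libraries (adjusted p 0.0569 to 0.0829), and the mature call against F5 was lost without F5 mature replicate 3 (adjusted p = 0.0677). The late call against TG6 was lost without TG6 replicate 1 or 2 at all stages (adjusted p = 0.0514 and 0.0643), and that against F5 when only these groups were fitted (adjusted p = 0.0713). Without TG6 mature replicate 3, the library rich in Mki67, the mature difference from TG6 was called (log2 2.03, adjusted p = 0.0134).

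Among the other lines, Dusp4 was lower in F5 early than in TG6 early in all libraries, at -1.19 on the log2 scale, without passing the threshold (adjusted p = 0.238). Without F5 replicate 1 at any stage the difference was -1.44 and was called (adjusted p = 0.00867).

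Dusp1, an immediate early phosphatase of p38, JNK and ERK on chromosome 17 (26505590 to 26562128), was called between OT-1 and TG6 at the early stage. It had 2690, 2712 and 2813 normalized counts in OT-1 early and 896, 1035 and 1593 in TG6 early, and F5 early had 2392, 815 and 979. The OT-1 libraries were close together and above all others of that stage. They were 2.40 times TG6 (log2 1.26 ± 0.41, adjusted p = 0.0250), but the call was kept only when TG6 early replicate 3 was the library left out, and lost without any of the other 5 (adjusted p up to 0.0989). Against F5 the difference was 1.14 (adjusted p = 0.0715, and 0.0258 with the mouse as a random term). At the late stage OT-1 had 1914, 2140 and 2823, TG6 1678 and 2040, and F5 5267, 1798 and 2203. Here the groups overlapped, and the 95% interval of the log2 difference between OT-1 and TG6 ran from -0.66 to 1.24. In mature cells (OT-1 1438, 1489 and 1968, TG6 1187, 1330 and 1659, F5 3291, 995 and 1258) it ran from -0.62 to 1.08.

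Dusp2, a nuclear phosphatase first known from activated lymphocytes, lies on chromosome 2 (127336159 to 127338376) and differed most at the late stage. It had 2711, 2467 and 2532 normalized counts in OT-1 late, 936 and 859 in TG6 late, and 1581, 734 and 972 in F5 late. All OT-1 values were above all others. OT-1 was 2.86 times TG6 (log2 1.52 ± 0.33, adjusted p = 0.00295) and 2.47 times F5 (1.30 ± 0.30, adjusted p = 0.00263), and both calls were kept whichever library was left out. The call against TG6 was lost without TG6 replicate 2 at all stages (adjusted p = 0.0617). At the early stage OT-1 (1276, 1543 and 1313) was also above TG6 (767, 786 and 1018) in every library, by 0.69 on the log2 scale, without passing the threshold (adjusted p = 0.0881), though it was called when only these groups were fitted (0.00849). In mature cells, OT-1 had 3109, 3106 and 3083 and TG6 3278, 3073 and 1929. These groups overlapped, with a 95% interval of the log2 difference from -0.41 to 0.82. Against F5 mature cells (2553, 1020 and 2317) the difference was 0.77 (adjusted p = 0.0662, and 0.0430 with the mouse as a random term).

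Dusp5 and Dusp10 were the most abundant members per kb, and both differed widely between mice. Dusp5, the nuclear ERK phosphatase on chromosome 19 (53529109 to 53542431), had 14720, 15947 and 6725 normalized counts in OT-1 early and 3956, 4152 and 7248 in TG6 early. At the late stage it had 10981, 9855 and 6453 in OT-1, and 1803 and 1828 in TG6. The groups overlapped early and not late, and the early difference was called only when just these groups were fitted (1.24, adjusted p = 0.0427). The late difference, 4.88 times (log2 2.29 ± 0.88), missed the threshold (adjusted p = 0.0846). It was called when only these groups were fitted (adjusted p = 0.00535) and without TG6 replicate 3 at all stages (0.0463). In mature cells (4792, 3836 and 2567 against 630, 574 and 4044) the difference was 1.67 ± 0.79 (adjusted p = 0.187). One TG6 library carried that overlap: without TG6 mature replicate 3 the difference was 2.58 (adjusted p = 0.0178). F5 gave 12158, 2491 and 2769 early, 18028, 2990 and 2875 late, and 7468, 1148 and 1244 in mature cells, so that its mean followed replicate 1. Without that mouse, OT-1 exceeded F5 by 2.15 early (adjusted p = 0.0172) and by 1.60 late (adjusted p = 0.0489).

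Dusp10, the phosphatase of p38 and JNK on chromosome 1 (184013302 to 184075636), was spread over a wide range. In OT-1 early it had 18195, 22225 and 5430 normalized counts, in TG6 early 3948, 3766 and 5736, and in F5 early 4420, 2322 and 2245. At the late stage the values were 14249, 15538 and 5569 in OT-1, 2132 and 2004 in TG6, and 10480, 2236 and 2123 in F5. At both stages OT-1 replicate 3 was within the range of the other lines, and replicates 1 and 2 were above it. OT-1 was 5.19 times TG6 at the late stage (log2 2.37 ± 0.73, adjusted p = 0.0303), a call that survived 1 of 5 removals of a library (adjusted p 0.0183 to 0.159). At the early stage OT-1 was 2.95 times TG6 (1.56 ± 0.65), not called (adjusted p = 0.0790). It was called with the mouse as a random term (0.0360), and without OT-1 early replicate 3 (log2 2.19, adjusted p = 0.0229). Against F5 the early factor was 4.57 (2.19 ± 0.65, adjusted p = 0.0290), which survived 2 of 6 such removals (0.00852 to 0.149). Against F5 the late difference was 1.54 (adjusted p = 0.0926, and 0.0427 with the mouse as a random term). In mature cells (6929, 8032 and 2092 in OT-1, 1600, 1451 and 3674 in TG6, 5197, 1507 and 1536 in F5) the groups overlapped.

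Dusp6, the cytoplasmic ERK phosphatase on chromosome 10 (99263231 to 99267489), had group means from 246 to 486 normalized counts and was called in 0 of the 17 comparisons by limma with 1 mean per group and no mouse term, with 3 at an unadjusted p under 0.05. It had 354, 590 and 432 normalized counts in OT-1 early and 377, 447 and 508 in TG6 early. The groups overlapped at every stage, and the 95% intervals of the log2 difference ran from -0.70 to 0.75 early, from -1.02 to 0.61 late and from -0.75 to 0.71 in mature cells. All 3 F5 early values (345, 184 and 209) lay below every OT-1 early and TG6 early value. Its log2 difference from TG6 was -0.90 (adjusted p = 0.148), and -1.17 without F5 replicate 1 (adjusted p = 0.00693). Against OT-1 the difference was 0.92 (adjusted p = 0.0917, and 0.0447 with the mouse as a random term).

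Spry1 and Spry2 inhibit the pathway above ERK. Spry1, on chromosome 3 (37639947 to 37644598), had 158, 178 and 162 normalized counts in OT-1 early, 72.3, 77.5 and 88.2 in TG6 early and 192, 61.0 and 104 in F5 early. At the late stage it had 51.4, 64.2 and 56.1 in OT-1, 11.0 and 11.8 in TG6, and 79.7, 16.5 and 14.02 in F5. TG6 late lay below every other group without overlap, and OT-1 exceeded TG6 in every library at both stages. The late difference was 4.67 times (log2 2.22 ± 0.66, adjusted p = 0.0244) and survived 2 of 5 removals of a library (adjusted p 0.0493 to 0.134). The early difference, 2.08 times (1.06 ± 0.59), was not called (adjusted p = 0.190), except when only these groups were fitted (0.00325). In mature cells Spry1 had 96.7, 50.3 and 82.0 in OT-1, 28.1, 33.6 and 182 in TG6, and 113, 65.6 and 55.8 in F5, and the groups overlapped. Leaving out 1 library, the mature log2 difference of OT-1 from TG6 ranged from -0.09 to 1.24 and was never called. Spry2, on chromosome 14 (105891947 to 105896819), was near the detection filter, with at least 10 normalized counts in 16 of 26 libraries. Its highest values were in TG6 early (20.8, 40.8 and 64.8), against 37.97, 29.1 and 15.8 in OT-1 early and 17.5, 5.80 and 12.6 in F5 early. F5 early was below TG6 early without overlap, at -1.71 on the log2 scale (adjusted p = 0.0775). That difference was called without F5 replicate 1 (-2.02, adjusted p = 0.0369). In mature cells OT-1 (37.0, 8.35 and 23.2) was above F5 (14.2, 3.78 and 4.01) by 1.52, with overlap (adjusted p = 0.0544, and 0.0481 with the mouse as a random term).

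The second question was how each inhibitor changed as positive selection proceeded. Libraries with the same number were taken to come from the same mouse, so that each change can be read within mice. The labels do not state this pairing for each library, and calls gained with a mouse term rest on it. In OT-1, correlations of deviations between same-number libraries were 0.0189 to 0.178, with 5 of 9 over 0.1. For TG6 the pairing is less sure, since its late libraries carry another prefix in their titles than its early and mature ones, and their same-number correlations were low (0.0230 to 0.0507). If they came from other mice, the TG6 changes to and from the late stage and the Dusp1 interaction of late against early with the mouse term do not hold as stated. A fit with the mouse as a fixed term called more members than the fit without it. From early to late, limma called 2 of 8 members in TG6 (25.4% of symbols), 2 in F5 (26.7%) and 1 in OT-1 (26.7%) without the mouse term, and 6, 3 and 3 with it (27.7%, 35.6% and 35.5%). From late to mature the counts were 2, 0 and 0 without it (22.3%, 20.5% and 24.4%) and 4, 5 and 3 with it (24.5%, 29.3% and 35%). At an unadjusted p under 0.05 without the mouse term, the F5 and OT-1 counts from late to mature were 2 and 0. Without F5 replicate 1, the F5 counts were 2 and 3 (21.4% and 18.2%). The fit with the mouse term also uses the early and mature libraries of TG6 replicate 3, which had no late library, so its TG6 estimates differ from the mean over the other two mice.

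**Figure D4:**
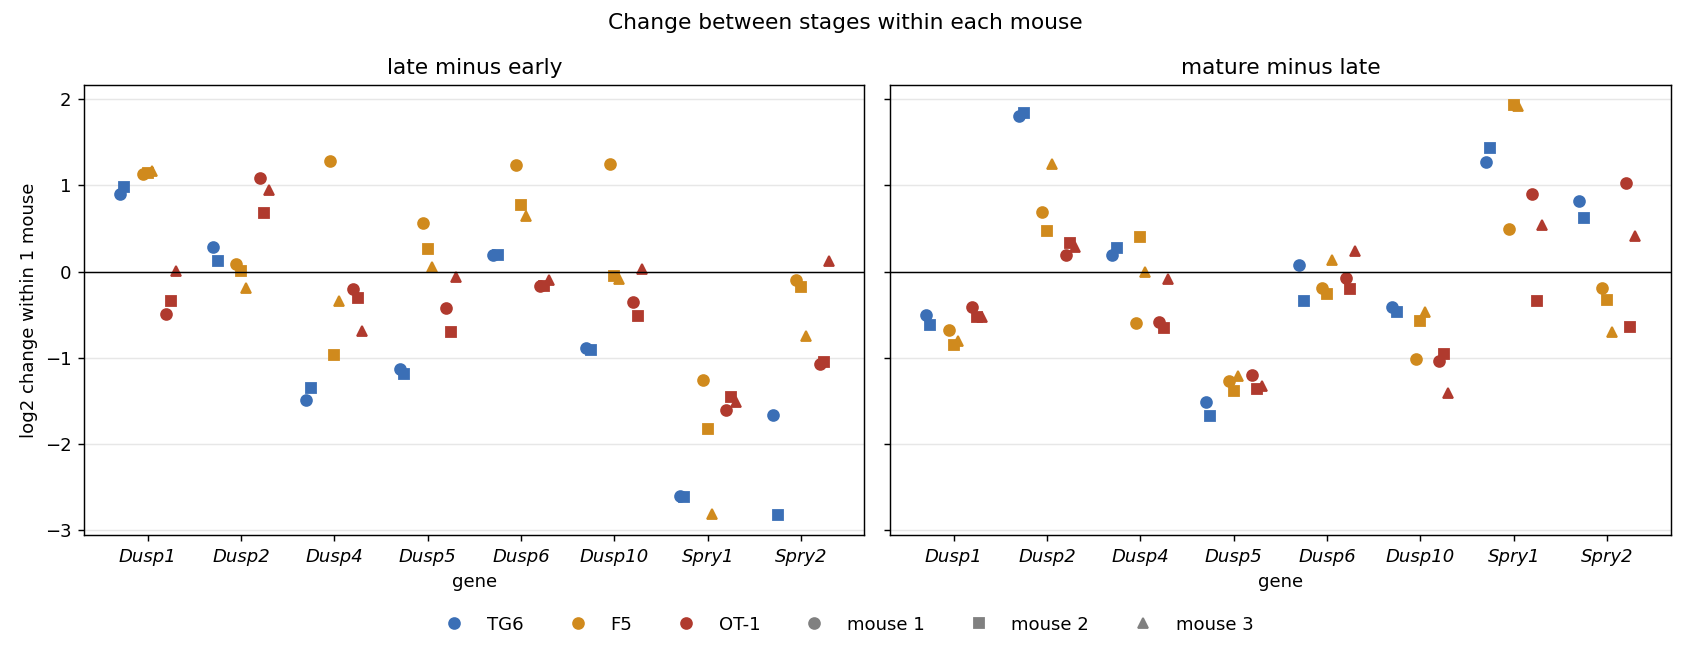
Change of each of the 8 genes within each mouse on the log2(normalized count + 1) scale, from early to late and from late to mature, by line. Dusp1, Dusp5 and Dusp10 lie below 0 from late to mature in all 8 mice and Dusp2 lies above it.

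Spry1 fell from early to late in all 8 mice with both libraries. The change was -2.69 on the log2 scale in TG6 (adjusted p = 0.00367), -1.96 in F5 (adjusted p = 0.0155) and -1.52 in OT-1 (adjusted p = 0.0597, and 0.00773 with the mouse term). Spry2 fell by 2.62 in TG6 (adjusted p = 0.00324). The F5 change of Spry1 was not called without F5 early replicate 1 or F5 late replicate 2 or 3 (adjusted p 0.0732 to 0.0977), and both TG6 changes were not called without TG6 replicate 2 at all stages (adjusted p = 0.0520 for Spry1 and 0.0827 for Spry2). From late to mature, Spry1 rose by 2.20 in TG6 (adjusted p = 0.0189), or by 1.35 without TG6 mature replicate 3, when it was not called (adjusted p = 0.121). Nor was it called without TG6 late replicate 1 or 2 (adjusted p = 0.107 and 0.0981). In F5 it was 1.45 higher (adjusted p = 0.0884, and 0.0126 with the mouse term), and in OT-1 it was higher in 2 of 3 mice. Cell division genes took the same course between stages: Mki67, a marker of cycling cells, had means of 16847, 195 and 12175 normalized counts in TG6 early, late and mature cells, 29953, 1125 and 11976 in F5, and 27270, 1700 and 28511 in OT-1. TG6 mature replicate 3 was the highest of its group for both Mki67 (23175 against 6220 and 7129) and Spry1 (182 against 28.1 and 33.6). The part of dividing cells in these changes was not tested.

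Dusp2 rose toward maturity. On reaching the mature stage it was higher in all 8 mice, by 1.58 in TG6 (adjusted p = 0.00147), 0.81 in F5 (adjusted p = 0.0594, and 0.00234 with the mouse term) and 0.27 in OT-1 (adjusted p = 0.543, and 0.0147 when only the groups compared were fitted). In OT-1 most of the rise came earlier, from early to late (0.90, adjusted p = 0.0277, and 0.000779 with the mouse term). Without the mouse term that OT-1 call survived 1 of 6 removals of a library (adjusted p 0.0406 to 0.0789). The TG6 rise was not called without TG6 replicate 2 at all stages (adjusted p = 0.0577). In TG6 the early to late change was 0.08, with a 95% interval from -0.61 to 0.77.

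Dusp5 and Dusp10 went the other way. Between the late and mature stages, Dusp5 was lower in all 8 mice with both libraries, with mean log2 changes of -1.59 in TG6, -1.29 in F5 and -1.30 in OT-1. The TG6 value is the mean of 2 mice and leaves out mature replicate 3 (4044 normalized counts). With it, the TG6 group means were 1816 late and 1749 mature. Without the mouse term, leaving out 1 library gave TG6 changes of Dusp5 from -1.59 to -0.19. The Dusp5 change was not called without the mouse term (adjusted p 0.245 to 0.634), except in OT-1 when only the groups compared were fitted (adjusted p = 0.0214). With the mouse term, where the TG6 fit includes replicate 3, all 3 lines were called (adjusted p = 0.00539, 0.00125 and 0.00111). Dusp10 was also lower in all 8 mice, at -0.44, -0.68 and -1.13, and with the mouse term it was called in F5 (adjusted p = 0.0151) and OT-1 (adjusted p = 0.000396). Its TG6 value of -0.44 also leaves out mature replicate 3 (3674 normalized counts). With that library, the TG6 group means of Dusp10 went the other way, 2068 late and 2241.5 mature. Leaving out 1 library gave TG6 changes of Dusp10 from -0.44 to 0.23 without the mouse term. From early to late, both fell in TG6 with the mouse term (Dusp5 -0.84, adjusted p = 0.0479, and Dusp10 -0.78, adjusted p = 0.0177), as did Dusp4 (-1.19, adjusted p = 0.0225). In F5, Dusp5 was higher in 3 of 3 mice, by 0.30 on average, without a call. Dusp6 rose there with the mouse term (0.89, adjusted p = 0.000176). Without it, Dusp6 missed the threshold (adjusted p = 0.0659), but was called with quantile normalization (0.0386) and in 3 of 6 removals of a library.

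Dusp1 changed differently in the OT-1 mice than in the TG6 mice, a difference called only with the mouse as a fixed term. For TG6 late, the pairing behind that term is less sure. From early to late Dusp1 was higher in 2 of 2 TG6 mice, by 0.94 on average, and in 3 of 3 F5 mice, by 1.15, with a spread between F5 mice of only 0.018 (SD). In OT-1 it was higher in 1 of 3 mice, with a mean change of -0.28. The F5 rise was called (adjusted p = 0.0411), but not without F5 late replicate 1 (0.68, adjusted p = 0.245), nor without early replicate 2 or 3, nor with no filter on low values (adjusted p = 0.0675). With the mouse term, which removes the level of each mouse, it had an adjusted p of 1.36e-07, the TG6 rise was called (0.89, adjusted p = 7.91e-06), and the OT-1 change was a fall (-0.28, adjusted p = 0.0234). Between the late and mature stages, Dusp1 was lower in all 8 mice and was called in all 3 lines with the mouse term, at -0.61, -0.78 and -0.49.

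A change of the line difference with stage was tested as an interaction for OT-1 and TG6. Without the mouse term, limma called 0 of 8 members for late against early (2.04% of symbols, 1 member at an unadjusted p under 0.05) and 0 of 8 for mature against early (4.2%, 0 members). Fitting only these groups, also without the mouse term, called Dusp2 (0.83, adjusted p = 0.0231), Dusp4 (1.05, 0.0109) and Spry1 (1.17, 0.0353) for late against early, and not Dusp1. With the mouse as a fixed term, Dusp1 was called in both (4.47% and 7.77% of symbols). The excess of OT-1 over TG6 changed by -1.16 ± 0.14 on the log2 scale from early to late (adjusted p = 0.000174) and by -1.04 ± 0.13 from early to mature (adjusted p = 8.15e-05).

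Genes around these inhibitors in the pathway were examined as lists, 97 tested genes in all. At the early stage OT-1 exceeded TG6 for 21 of them and was below for 7, at the late stage for 16 and 5, and in mature cells for 8 and 4. These are 28.9%, 21.6% and 12.4% of the listed genes, beside 27.8%, 15.5% and 9.74% of all tested symbols called in the same comparisons, so that the early share is near that of all symbols. Of 18 ERK response genes, 6 were higher in OT-1 early (Egr1, Fos, Fosl2, Junb, Ier2 and Etv5), 6 late and 3 in mature cells, and none was lower. Their median log2 difference was 0.72, 0.93 and 0.19, against 1.15, 1.87 and 0.72 for the 8 members. Etv5, an ETS factor that FGF and ERK signals induce, was higher at all 3 stages (3.47, 2.48 and 2.94). Fos, the AP-1 subunit, was higher early and late (2.16 and 3.04) and not in mature cells (0.68, adjusted p = 0.483). Egr1 followed the same course, with 1.61, 1.43 and 0.98 (adjusted p = 0.0764 in mature cells), and so did Ier2 (1.63, 1.62 and 0.46, the last not called). Fosl2 differed by 4.32 early and 3.86 late, with 2352 ± 1849 (SD, n = 3) normalized counts in OT-1 early and 90.8 ± 78.3 in TG6 early. Junb was higher at the early stage (1.81), and at the late stage the difference was 0.84 (adjusted p = 0.253), with every OT-1 library above both TG6 libraries.

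Relatives of the members were also compared, beside 27.8%, 15.5% and 9.74% of all tested symbols called between OT-1 and TG6 at the 3 stages. At the early stage 15.4% of all tested symbols were called higher in OT-1. Limma called 0 of the 4 other MAP kinase phosphatases between OT-1 and TG6 at the 3 stages (0, 0 and 0 at an unadjusted p under 0.05) and 0 of 8 atypical dual specificity phosphatases (1, 1 and 0). Among 4 other Sprouty and Spred genes, Spry4 and Spred2 were higher in OT-1 early and 0 were called later (1 and 3 at an unadjusted p under 0.05). Spry4 was near 0 in TG6 early, with 0.66 ± 1.15 normalized counts against 25.5 ± 17.4 in OT-1 early. Upstream, of 9 Ras activators and adaptors 2 were higher in OT-1 early (Rasgrp1 and Grb2) and 2 lower (Lat and Plcg1). Plcg1, the phospholipase that feeds Ras activation, was lower at all 3 stages (-0.60, -0.43 and -0.47). Lat, its adaptor, was lower early and late (-0.31 and -0.26). Of 5 Ras genes 2 were higher, and of 10 Ras GTPase activating proteins 2 were higher and 1, Rasa4, lower (-1.38). Of 11 genes from Raf to ERK 1 was higher and 1 lower (Lamtor3, -0.59), of 9 in the p38 and JNK cascade 1 was higher, and of 4 ternary complex factors and SRF 1 was higher and 1 lower (Elk4, -0.31).

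Markers of TCR signaling were compared in the same way. Of 4 such genes, OT-1 exceeded TG6 for 2 early (Cd5 and Cd69), 3 late and 1 in mature cells, with 4, 3 and 1 at an unadjusted p under 0.05 and 27.8%, 15.5% and 9.74% of all tested symbols called. Cd69 was 1.27 higher early, 1.15 late and 0.04 in mature cells, the last not called. Nr4a1 had 16128, 14650 and 6006 normalized counts in OT-1 early and 2283, 2299 and 6879 in TG6 early, so that the same mice were low and high as for Dusp5. Nr4a3 was likewise lowest in OT-1 replicate 3 at every stage, but Cd69 (1533 against 760 and 796 early) and Cd5 were highest in that mouse at all 3 stages, the opposite of Dusp5. Of 11 heat shock and dissociation genes, 2 were higher in OT-1 early (Hspa8, 1.24, and Atf3, listed at 0 in TG6 early) and 2 lower (Btg2, -1.13, and Socs3, -1.12), and Socs3 was lower at all 3 stages. The part of these genes in the differences of the members was not tested.

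For each member, the most similar profiles across the 26 libraries were sought among 11015 other symbols (11016 for Spry2) by Pearson r, as a description with no test. Dusp1 was most like Junb (r = 0.90), Rgs2 (0.89) and Ppp1r15a (0.86), and Dusp5 like 1190002N15Rik (0.94), Gadd45a (0.93) and Nr4a1 (0.93). Dusp10 was most like Ramp3 (0.96), Dgat1 (0.96) and 1190002N15Rik (0.94), so that this last symbol was among the closest for both. Dusp4 was most like Gem (0.93), Plk2 (0.93) and mt-Rnr2 (0.92), and Dusp2 like Smpdl3a (0.92), Kcnab2 (0.92) and Pgm2 (0.91). Spry1 was most like Cebpb (0.95), Fam83d (0.92) and Fzd5 (0.91). The closest profiles were less alike for Dusp6 (Dnajb9, 0.82, Ficd, 0.79, and F8a, 0.79) and Spry2 (Csrnp1, 0.81, Xbp1, 0.81, and Snx18, 0.77). The libraries share groups and mice, which these values include.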

How the data were processed

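The data are RNA-seq of sorted thymocytes from 9 groups (26 libraries). Per the submitters' processing notes, reads were trimmed with Trimmomatic 0.32, aligned to mm10 with Bowtie2 2.3.2 and quantified with RSEM 1.2.31, and the authors deposited gene signal values normalized by the median-of-ratios method of DESeq2. These are not whole reads (1.34 to 4.74% of values per library lay within 0.01 of a whole multiple of the smallest), so no count test was run. Totals per library were 16134786 to 18944173, and the number of reads behind a value is not known. The library kit and strand are not given in the sources used here.

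Values were analysed as log2(value + 1), and fold changes are on that scale, which understates the change of low genes. The 16372 symbols with at least 10 in at least 2 libraries entered limma 3.58.1 (R 4.3.3, Python 3.11.15, pandas 2.3.3) with 1 mean per group, a variance trend and 17 residual degrees of freedom. P-values were Benjamini-Hochberg adjusted over all tested symbols within each of 17 comparisons, 9 between lines, 6 between stages and 2 interactions, and called under 0.05. The script was tested on simulated data.

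The series design gives 3 mice per line, each sorted into the 3 populations, so a replicate number was taken to mark a mouse. The labels do not state this for each library, and TG6 late libraries carry another title prefix. For same-numbered libraries, correlations of deviations from group means were 0.106 to 0.340 in F5 (9 of 9 over 0.1), 0.0189 to 0.178 in OT-1 (5 of 9) and 0.0230 to 0.274 in TG6 (2 of 7), and for different numbers the medians were -0.102, -0.0531 and -0.0298. The mouse was therefore also fitted, as a fixed term (11 residual degrees of freedom) for stages and interactions and as a random term (correlation 0.280) for lines. Alternatives were pseudocounts of 0.1 and 5, no filter, scaling to the same total, quantile normalization, only the groups compared, and leaving out each library or mouse.

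The members and all lists were chosen with earlier results of these data known. Genes named are the 8 members, the 3 symbols (mean at least 50) most alike to each, up to 10 genes per direction with the largest called difference between OT-1 and TG6 early in the pathway lists, sorting markers and TCR signal markers. Names in list counts, names of markers of other cells, Mki67 and Jun were chosen after their values were seen. Positions and exon lengths are from GENCODE vM21, promoters from RefSeq.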

Additional observations from a re-analysis of the deposited data

Results flagged for a closer look

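The effect of the stage on Dusp1 differed between OT-1 and TG6 with the mouse as a fixed term: the interaction was -1.16 on the log2 scale for late against early (adjusted p = 0.000174) and -1.04 for mature against early (adjusted p = 8.15e-05, limma). For the latter, Dusp1 was higher in mature than in early cells in every TG6 mouse (mean 0.28) and lower in every OT-1 mouse (-0.76), a difference of 1.04. Without the mouse term neither interaction was called (adjusted p = 0.609 and 0.459).

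In other cases too every mouse of 1 line moved one way and every mouse of another line the opposite way between the same stages. From early to late, Dusp6 was higher in TG6 (0.19, 2 mice) and lower in OT-1 (-0.14), a difference of 0.33 whose interaction was not called (adjusted p = 0.934, and 0.590 with the mouse as a fixed term). The remaining differences were not tested. From early to mature, Dusp1 was higher in F5 (0.37) and lower in OT-1 (-0.76), a difference of 1.13. From late to mature, Dusp4 was higher in TG6 (0.24, 2 mice) and lower in OT-1 (-0.44), a difference of 0.68. From early to late, Dusp5 was higher in F5 (0.30) and lower in TG6 (-1.16, 2 mice) and OT-1 (-0.39), differences of 1.45 and 0.69. Dusp6 was higher in F5 (0.89) and lower in OT-1 between the same stages, a difference of 1.03. From late to mature, Spry2 was higher in TG6 (0.72, 2 mice) and lower in F5 (-0.41), a difference of 1.13.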

How the results depend on the processing

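No called member reversed its direction under any alternative. With pseudocounts of 0.1 and 5 and with libraries scaled to the same total, 136 of 136 member results kept their side of the threshold. The sign changed in 0, 1 and 3 of them and, with quantile normalization, in 6, all uncalled in both fits, such as Dusp6 for OT-1 against TG6 early (0.02, and -0.08 with the same total). Scaling to the same total moved the median log2 difference of all symbols from about 0 to -0.11, -0.13 and -0.10 for OT-1 against TG6 at the 3 stages, -0.13 for OT-1 against F5 in mature cells and -0.11 for TG6 mature against late. Without a filter, 1 member instead of 2 was called for F5 late against early. With quantile normalization, 2 instead of 1 were called for OT-1 against F5 in mature cells, adding Spry2, and 3 instead of 2 for F5 late against early, adding Dusp6 (adjusted p = 0.0386).

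Fitting only the groups compared gave 5 members called for OT-1 against TG6 early (2 with all groups), adding Dusp2, Dusp5 and Spry1, 6 instead of 4 late, adding Dusp5 and Spry2 (adjusted p = 0.00535 and 0.0353), 1 and 1 for OT-1 against F5 early and late, 1 for F5 against TG6 early (Dusp4, 0.0409), 5 and 1 for TG6 late against early and mature against late, 0 for F5 late against early, 2 and 2 for the same OT-1 changes, and 3 for the interaction of late against early (Dusp2, Dusp4 and Spry1). It ended the calls of Dusp10 and Dusp4 for OT-1 against F5 early and late (adjusted p = 0.0517 and 0.0713), of Spry1 for TG6 mature against late (0.212) and of Dusp1 and Spry1 for F5 late against early (0.199 and 0.126). The cause was not tested.

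With the replicate block as a fixed mouse term, the counts were 6 and 4 for TG6 late against early and mature against late, 5 for F5 mature against late, 3 and 3 for OT-1, and 1 and 1 for the interactions. With the mouse random, they were 4, 3 and 3 for OT-1 against F5 and 3 for OT-1 against TG6 early. The block changed no call other than those given beside the results.

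Leaving out 1 library, counts of called members ranged from 0 to 1 for OT-1 against TG6 early, 2 to 4 late and 0 to 2 mature, from 1 to 4, 2 to 4 and 0 to 3 for OT-1 against F5, and from 0 to 1, 0 to 0 and 0 to 0 for F5 against TG6. For late against early they were 2 to 2 in TG6, 1 to 2 in F5 and 0 to 1 in OT-1, and for mature against late 1 to 2, 0 to 2 and 0 to 0. Leaving out 1 mouse at all stages, chosen after seeing the data, gave 0 to 2, 0 to 5 and 0 to 2 for OT-1 against TG6, 1 to 5, 2 to 5 and 0 to 4 for OT-1 against F5, 0 to 3, 0 to 0 and 0 to 1 for F5 against TG6, 0 to 2, 0 to 2 and 0 to 0 for late against early, and 0 to 1, 0 to 3 and 0 to 0 for mature against late in TG6, F5 and OT-1. Without TG6 replicate 2, which left 1 TG6 late library that was assumed to vary like the other groups, none of the late calls of OT-1 against TG6 was kept (Dusp2 1.45, adjusted p = 0.0617, and Dusp4 2.66, adjusted p = 0.0643). The depth behind the values is unknown, so counting error could not be separated from the spread between mice.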
